A study of Rattus norvegicus with 6 samples.

Results

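The 31 genes described here encode enzymes and regulators of cholesterol and fatty acid synthesis, from the acetyl-CoA enzymes through the mevalonate and sterol steps to the fatty acid desaturases, together with the SREBP proteins that control them. They were taken from a list of 32 names, each matched to the gene name that the array files give a probe, and of several probes for a gene the one with the highest mean on the 6 arrays was taken. The name *Scd* had no probe, and the current RefSeq annotation gives this name to the gene of the *Scd1* probe. In all, 17485 genes on the array carried a symbol or synonym of a RefSeq protein-coding gene. Names beginning with LOC or RGD were left out, and this set is what named genes and all genes mean below.

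RNA came from replicating and from quiescent β-cells of 3 islet preparations, each pooled from the islets of 4 young adult male Wistar rats. The islets of both groups were cultured overnight at basal glucose with EdU, a thymidine analogue taken up during DNA synthesis, then dispersed, loaded with the zinc dye Newport Green and fixed in paraformaldehyde. β-cells were gated on large size, high granularity and bright Newport Green, and were sorted as EdU-positive (replicating) or EdU-negative (quiescent). Every preparation gave 1 array of each group, so that each gene had 3 paired ratios, and a ratio is replicating over quiescent on the log2 scale throughout. A normalized value is the log2 signal of a probe after background correction and quantile normalization. It was compared between arrays and not between probes. An EdU-positive cell had passed through S phase during the culture, and the sort does not say in which phase of the cycle it was collected.

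Cells make cholesterol from acetyl-CoA through mevalonate, squalene and lanosterol, and make fatty acids from the same precursor through malonyl-CoA. The membrane-bound transcription factors SREBP1 and SREBP2, encoded by *Srebf1* and *Srebf2*, are carried by SCAP from the endoplasmic reticulum to the Golgi when sterols are low, and INSIG proteins hold this complex back when sterols are high. A cell that divides has to enlarge its membranes, and β-cells also use lipid intermediates and cholesterol-rich membrane in insulin secretion.

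The arrays differed in ways that touch every gene below. The 3 replicating arrays correlated with each other at an r of 0.967 to 0.986 over all probes, whereas the quiescent array of preparation 2 reached only 0.654 to 0.83 with the other 5. The quiescent array of preparation 3 correlated at 0.943 to 0.969 with the replicating arrays and at 0.867 with the quiescent array of preparation 1. Between 80.8% and 98.4% of probes were well above background on an array, and no spot was saturated. Spots marked as outliers numbered 1583 on the quiescent array of preparation 2, which was the array at 98.4%, and 252 to 299 on the other 5. All 8 proliferation genes checked, among them *Mki67*, *Top2a* and *Plk1*, were higher in the replicating cells at the unadjusted threshold of 0.05, at a median ratio of 3.69 over the 8 (3.77, 3.44 and 3.92 by preparation). The 9 β-cell markers on the array were well above background on all 6 arrays.

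The oligonucleotides behind the 4 genes that passed the unadjusted threshold were 60-base probes, of which the first 30 bases are shown so that the measured transcripts can be found. Positions of the whole probes are those of the array files on the rat build rn4. The *Dhcr7* probe lay at chr1:204258565-204258624 on the plus strand, the *Fads2* probe at chr1:212514714-212514773 on the minus strand and the *Scd1* probe at chr1:249458860-249458919 on the minus strand. The 2 *Nsdhl* probes lay at chrX:158955914-158955973, which is the brighter one, and chrX:158954224-158954283, both on the plus strand. Exons of that build were not used here.
Dhcr7: atccctggctgacttgataaagtctgtctg
Fads2: tcacacagatgaaccacattgtcatggaga
Scd1: gccaaagtgcaagcctacctactcactgcc
Nsdhl, brighter probe: taagaaggcaatagggcaagctaacaaacc
Nsdhl, second probe: tccaaatccagacaacttttacaccatttc

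SREBP proteins are known to act on promoters together with the factors NF-Y and Sp1, so the promoters of the same 4 genes are given next, from 250 bases before to 50 bases after the start in RefSeq (GRCr8), read in the direction of the gene. Capitals mark CCAAT, the core letters bound by NF-Y, and GGGCGG, those bound by Sp1, each on either strand, so that ATTGG and CCGCCC are capitals as well. The windows lie at chr1:208444184-208444483 (plus strand) for *Dhcr7*, chr1:216171984-216172283 (minus) for *Fads2*, chrX:155817110-155817409 (plus) for *Nsdhl* and chr1:253231682-253231981 (minus) for *Scd1*.
Dhcr7 promoter: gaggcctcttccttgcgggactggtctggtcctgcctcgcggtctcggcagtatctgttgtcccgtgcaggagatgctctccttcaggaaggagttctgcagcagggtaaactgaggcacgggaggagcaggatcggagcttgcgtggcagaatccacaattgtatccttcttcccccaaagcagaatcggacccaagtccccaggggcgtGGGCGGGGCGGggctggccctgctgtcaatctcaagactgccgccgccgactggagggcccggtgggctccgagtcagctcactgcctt
Fads2 promoter: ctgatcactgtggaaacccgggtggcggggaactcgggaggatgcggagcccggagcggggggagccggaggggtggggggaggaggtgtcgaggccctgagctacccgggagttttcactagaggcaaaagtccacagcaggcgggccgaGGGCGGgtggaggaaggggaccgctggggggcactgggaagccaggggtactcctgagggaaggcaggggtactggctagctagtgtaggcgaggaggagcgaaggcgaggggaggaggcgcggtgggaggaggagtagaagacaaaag
Nsdhl promoter: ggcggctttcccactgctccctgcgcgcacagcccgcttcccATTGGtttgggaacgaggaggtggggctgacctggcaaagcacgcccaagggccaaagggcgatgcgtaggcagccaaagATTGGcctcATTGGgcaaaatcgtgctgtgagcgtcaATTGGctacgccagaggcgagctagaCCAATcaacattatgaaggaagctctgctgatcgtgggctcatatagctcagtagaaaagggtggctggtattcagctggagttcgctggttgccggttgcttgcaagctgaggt
Scd1 promoter: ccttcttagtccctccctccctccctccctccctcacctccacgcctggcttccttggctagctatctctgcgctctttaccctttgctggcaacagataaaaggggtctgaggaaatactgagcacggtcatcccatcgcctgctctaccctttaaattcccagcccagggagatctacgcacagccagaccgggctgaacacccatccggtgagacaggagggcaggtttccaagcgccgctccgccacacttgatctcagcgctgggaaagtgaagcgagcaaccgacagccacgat

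The *Nsdhl* window held 5 copies of CCAAT and no GGGCGG. The *Dhcr7* window held no CCAAT and 2 overlapping copies of GGGCGG, close before the start. *Fads2* had 1 GGGCGG and no CCAAT, and *Scd1* had neither. RefSeq promoters were matched for 24 of the 31 genes. CCAAT was in the windows of 18 of these genes (75%), against 37.5% of all 33469 rat promoters and 36.8% of the 14138 promoters of genes on the array. GGGCGG was in 21 (87.5%), against 33.1% and 52.8%. The sterol regulatory element TCACNCCAC, searched on both strands, was in none of the 24 and in 1.12% of all promoters. These are matches of letters and say nothing of binding in these cells.

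The ratios of the sterol and fatty acid genes were spread to both sides of 0. *Dhcr7* and *Fads2* were higher and *Nsdhl* and *Scd1* lower in the replicating cells at the unadjusted threshold, and limma's adjusted p was under 0.05 for none of the 31 genes, its lowest value being 0.475. The 2 higher and 2 lower genes are 6.45% of the 31 each. Over all named genes 6.68% were higher and 2.91% lower by the same rule, and 0 passed the adjusted p. Over all probes, named or not, the shares were 5.01% and 4.59%. The median log2 ratio of the 31 genes was -0.02, beside 0.03 over all genes. Ratios were above 0 for 15 genes and below 0 for 16, and 51.6% of all genes were above 0.

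**Figure D1:**
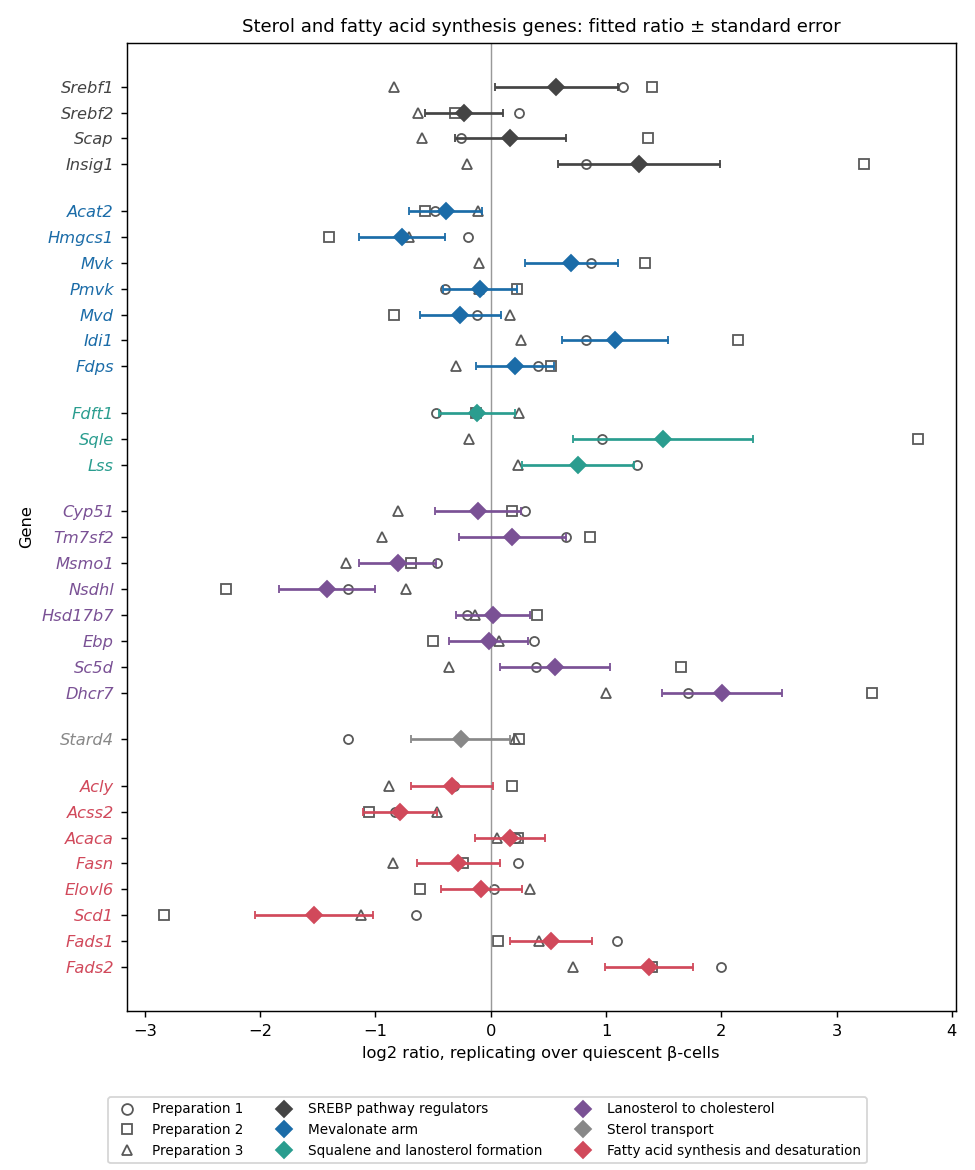
Log2 ratios, replicating over quiescent β-cells, of the 31 genes of cholesterol and fatty acid synthesis, grouped and coloured by role. Open symbols are the 3 islet preparations, and diamonds with bars are the limma estimate ± its standard error. *Dhcr7* and *Fads2* lie to the right of 0 and *Nsdhl* and *Scd1* to the left of 0 in every preparation, and most other genes have symbols on both sides.

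In 21 of the 30 genes with a value on every array, the replicating and the quiescent values overlapped. *Idi1*, *Dhcr7* and *Fads2* had all 3 replicating values above the quiescent ones (10%, against 11.3% of all genes). *Acat2*, *Hmgcs1*, *Msmo1*, *Nsdhl*, *Acss2* and *Scd1* had them all below (20%, against 5.83%). A ratio of 1 sign in all 3 preparations was seen in 5 genes upward and 6 downward, against 18.6% and 17.4% of all genes. The precision was limited by the 3 pairs: the 95% interval of the ratio reached a median of 0.95 to each side, and lay within 1.5 of 0 in 17 of the 31 genes.

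The 4 regulators of the SREBP pathway did not differ at the unadjusted threshold, and each of them had ratios of both signs among the preparations. *Srebf1*, which encodes the factor of fatty acid synthesis, had normalized values, in the order of preparations 1, 2 and 3, of 8.28, 8.44 and 8.07 on the replicating arrays and of 7.13, 7.05 and 8.91 on their quiescent partners. It was thus higher in the replicating cells of preparations 1 and 2 and lower in those of preparation 3, with a fitted log2 ratio of 0.57 ± 0.53 (SE). *Srebf2*, the factor of cholesterol synthesis, read 13.07, 13.27 and 13.10 on the replicating and 12.83, 13.57 and 13.73 on the quiescent arrays. Its ratio of -0.23 had a 95% interval of -1.10 to 0.64. *Scap*, the escort protein, read 9.80, 9.50 and 10.50 on the replicating arrays against 10.06, 8.14 and 11.09, where the quiescent value of preparation 2 was the lowest of all.

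*Insig1*, whose protein retains SCAP and whose own transcription is driven by SREBP, had a large ratio and a wide spread. Its normalized values were 11.53, 10.94 and 11.21 in replicating and 10.71, 7.70 and 11.42 in quiescent cells. The replicating values were close to each other, while the quiescent array of preparation 2 was far below the rest. The log2 ratio was 1.28 ± 0.70, at an unadjusted p of 0.126, and was 0.31 without preparation 2. The median ratio of the 4 regulators was 0.37.

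In the mevalonate arm, 7 genes from acetyl-CoA to farnesyl diphosphate, none differed at the unadjusted threshold and the median ratio was -0.09. *Hmgcs1*, the cytosolic synthase that makes HMG-CoA, read 11.72, 11.64 and 11.48 on the replicating arrays and 11.92, 13.04 and 12.19 on the quiescent arrays. All replicating values were below all quiescent ones, and the log2 ratio was -0.77 with a 95% interval of -1.72 to 0.18. *Acat2*, which joins acetyl-CoA units at the entry of the pathway, was also below in every pair, with a ratio of -0.39 ± 0.31. *Idi1*, the isomerase of isopentenyl diphosphate, went the other way: 12.22, 12.51 and 12.22 on the replicating arrays against 11.39, 10.37 and 11.96, a log2 ratio of 1.08 ± 0.46. The kinases *Mvk* and *Pmvk* had ratios of 0.70 and -0.09, the decarboxylase *Mvd* -0.26 and the synthase *Fdps* 0.21, and each of these 4 had both signs among the preparations.

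The 3 enzymes from farnesyl diphosphate to lanosterol had a median log2 ratio of 0.76, again with none past the unadjusted threshold. *Sqle*, the squalene epoxidase that is a controlling step of sterol synthesis, had replicating values of 10.60, 10.74 and 10.78 and quiescent values of 9.63, 7.03 and 10.97. The quiescent array of preparation 2 was once more far below the others, and in preparation 3 the replicating value was the lower of the pair. The ratio was 1.49 ± 0.78 with an interval of -0.50 to 3.48, and 0.39 without preparation 2. *Lss*, lanosterol synthase, lacked the quiescent value of preparation 2, an outlier spot, so its ratio of 0.76 rests on preparations 1 (1.27) and 3 (0.24). *Fdft1*, squalene synthase, had a ratio of -0.12.

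The 8 enzymes from lanosterol to cholesterol held the 2 sterol genes past the unadjusted threshold. *Dhcr7*, the reductase of the last step, read 10.25, 10.24 and 10.28 on the replicating arrays and 8.54, 6.94 and 9.29 on the quiescent arrays. The replicating values were nearly equal and lay above every quiescent value. Its log2 ratio of 2.00 ± 0.52, or 4.01-fold, had an unadjusted p of 0.0114 in the limma fit and a 95% interval of 0.68 to 3.33. *Nsdhl*, a dehydrogenase that takes part in removing the C4 methyl groups of the sterol ring, read 8.76, 8.73 and 8.77 on the replicating arrays and 9.999, 11.03 and 9.50 on the quiescent arrays. Here too the replicating values were nearly equal, and they lay below every quiescent value. The log2 ratio was -1.42 ± 0.42, or 0.373-fold, at an unadjusted p of 0.018.

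*Msmo1*, the oxidase that precedes *Nsdhl* in the same demethylation, lay below 0 in all 3 preparations as well, at -0.47, -0.69 and -1.26, with a fitted log2 ratio of -0.81 and an interval of -1.66 to 0.05. *Hsd17b7*, the reductase that ends this demethylation, had a ratio of 0.02. The other 4 enzymes had ratios of both signs among the preparations: *Cyp51*, the lanosterol demethylase, had a fitted log2 ratio of -0.11, the reductase *Tm7sf2* 0.19, the isomerase *Ebp* -0.02 and the desaturase *Sc5d* 0.56, which was 0.01 without preparation 2. Over the 18 sterol enzymes from *Acat2* to *Dhcr7* 9 ratios were above 0 and 9 below it. *Stard4*, which carries sterol between membranes, had a ratio of -0.26.

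**Figure D2:**
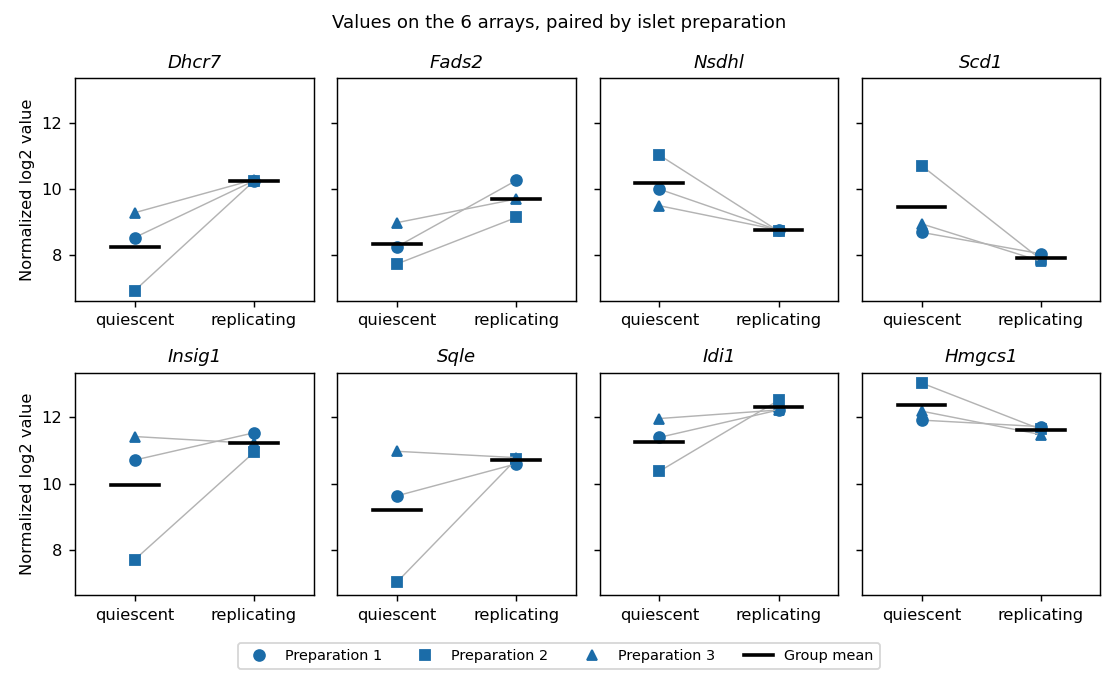
Normalized log2 values of 8 genes on the 6 arrays. Symbols mark the islet preparation, lines join the quiescent and the replicating sample of a preparation, and bars are group means. Replicating values of *Dhcr7* and *Nsdhl* are nearly equal in the 3 preparations. The quiescent array of preparation 2 lies lowest for *Dhcr7*, *Fads2*, *Insig1*, *Sqle* and *Idi1* and highest for *Nsdhl*, *Scd1* and *Hmgcs1*.

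Among the 8 genes of fatty acid synthesis and desaturation, the genes past the unadjusted threshold were a pair of desaturases, 1 in each direction. *Fasn*, fatty acid synthase, read 10.17, 9.66 and 10.18 on the replicating arrays and 9.93, 9.90 and 11.03 on the quiescent arrays. The groups overlapped, and the ratio of -0.28 had a 95% interval of -1.20 to 0.63. *Acaca*, the carboxylase that makes malonyl-CoA, read 12.44, 11.65 and 12.31 against 12.22, 11.41 and 12.26, so that it differed more between preparations than between the groups. Its ratio was 0.17 ± 0.30. *Acly*, which makes cytosolic acetyl-CoA from citrate, read 12.85, 13.08 and 12.85 on the replicating arrays against 13.16, 12.89 and 13.74, with a ratio of -0.34 ± 0.36.

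*Acss2*, which makes acetyl-CoA from acetate, had ratios of -0.83, -1.05 and -0.47 in the 3 preparations, and its fitted log2 ratio of -0.78 had an interval of -1.60 to 0.03. *Elovl6*, which elongates palmitate, had a ratio of -0.08. The median ratio of the 8 genes was -0.18.

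*Scd1*, the stearoyl-CoA desaturase that makes monounsaturated fatty acids, read 8.05, 7.88 and 7.83 on the replicating arrays and 8.70, 10.71 and 8.95 on the quiescent arrays. Every replicating value was below every quiescent one, and the quiescent array of preparation 2 was the highest. The log2 ratio was -1.53 ± 0.51, or 0.345-fold, at an unadjusted p of 0.029 in the limma fit, and it was -0.89 at an unadjusted p of 0.0647 without preparation 2. *Fads2*, the Δ6 desaturase of polyunsaturated fatty acids, read 10.26, 9.14 and 9.70 on the replicating arrays and 8.26, 7.74 and 8.99 on the quiescent arrays. All replicating values lay above the quiescent ones, although the lowest replicating and the highest quiescent value were close. The ratio was 1.37 ± 0.38, or 2.59-fold, at an unadjusted p of 0.0147 and with a 95% interval of 0.40 to 2.34. *Fads1*, the Δ5 desaturase that acts after it, had ratios of 1.09, 0.06 and 0.42 in the 3 preparations, with a fitted ratio of 0.52 ± 0.36.

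The preparations did not behave alike. Ratios of the 31 genes had a median of 0.24 in preparation 1, 0.21 in preparation 2 and -0.19 in preparation 3, against 0.12, 0.11 and -0.05 over all genes. A ratio above 1 was found for 5 genes in preparation 1, for 9 in preparation 2 and for 0 in preparation 3, and a ratio below -1 for 2, 4 and 2. Over all genes 14%, 28% and 3.83% of ratios were above 1 and 11%, 22.3% and 2.31% below -1. Over the 30 genes with all values, the ratios of preparations 1 and 2 correlated at an r of 0.703, those of 1 and 3 at 0.42 and those of 2 and 3 at 0.397. These correlations are over genes, which are not independent replicates, and arise from separate arrays that were normalized together. Over all probes the same values were 0.63, 0.164 and 0.0167.

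Without preparation 3, 7 of the genes were higher and 1 was lower at the unadjusted p, when 14.5% and 9.56% of all genes were. *Srebf1* (1.27), *Insig1* (2.03), *Mvk* (1.10), *Idi1* (1.49) and *Sqle* (2.34) then joined *Dhcr7* and *Fads2*. *Scd1* was then at -1.74 and an unadjusted p of 0.0525, and *Nsdhl* was the lower gene (-1.77). Without preparation 1, *Dhcr7* (2.15) and *Scd1* (-1.98) were the genes past the threshold, when 1.70% of all genes were higher and 0.137% lower. Without preparation 2 *Dhcr7* (1.35), *Fads2* (1.36) and *Nsdhl* (-0.99) were, against 5.05% and 1.03% of all genes.

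Most of the spread lay on the quiescent side. The SD of the 3 quiescent values was larger than that of the 3 replicating values in 26 of the 30 genes, as it was in 86.8% of all genes. The median SD was 0.63 on the quiescent and 0.19 on the replicating arrays, beside 0.69 and 0.22 over all genes. The quiescent array of preparation 2 was the lowest of the 6 values in 12 of the genes and the highest in 6 (39.5% and 31.7% of all genes), and that of preparation 3 was the highest in 11 (21.6% of all genes).

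For 13 of the 31 genes the array carried more than 1 probe, and these did not always give the same ratio. The probes of *Lss* (0.76 and 0.91) are 1 oligonucleotide under a pair of names, which leaves 12 genes with different probes. In 7 of the 12 genes all probes had a ratio of the same sign. The paired probes of *Insig1* (1.28 and 0.72), *Sqle* (1.49 and 1.05), *Idi1* (1.08 and 0.88) and *Sc5d* (0.56 and 0.85) were all above 0. The second *Lss* spot, which had all 6 values, had ratios of 1.33, 1.12 and 0.27 in the 3 preparations.

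*Nsdhl* was the called gene that depended on its probe. The brighter probe had ratios of -1.24, -2.29 and -0.73 in the 3 preparations, and the second probe, which lies nearer the 5′ side on rn4, had ratios of -0.63, 0.42 and -0.13 with a fitted value of -0.11. With the median of both probes the log2 ratio was -0.77, at an unadjusted p of 0.0555. The brighter probe carries the accession of a predicted transcript and the second that of a curated one. *Dhcr7*, *Fads2* and *Scd1* had a single probe each.

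In 5 genes the probes differed in sign. *Stard4* had -0.26 on its brighter and 1.25 on its second probe, the latter at an unadjusted p of 0.0492. *Acaca* spread from -0.77 to 0.85 over 3 probes and *Acat2* from -1.25 to 0.02 over 5. *Srebf1* read 0.57 and -0.19, and *Cyp51* -0.11 and 0.64. Which transcripts these probes share was not examined here.

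**Figure D3:**
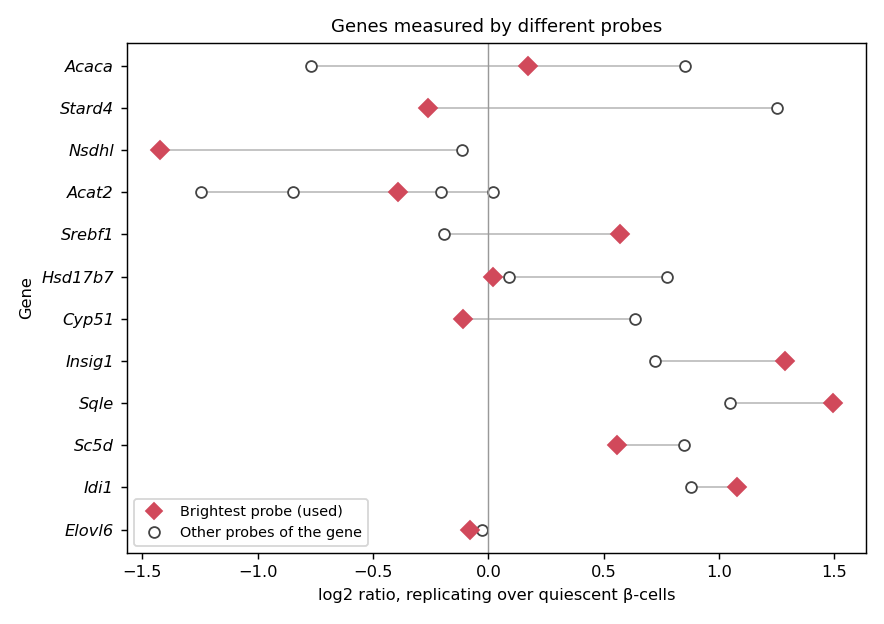
Log2 ratios, replicating over quiescent β-cells, of every probe of the 12 genes with different probes, ordered by the range over their probes. The red diamond is the brightest probe, used for the gene, and open circles are the others. Probes of *Acaca*, *Stard4*, *Acat2*, *Srebf1* and *Cyp51* fall on both sides of 0, and those of *Nsdhl* range from -1.42 to -0.11.

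Genes around these pathways were described by the same rule, by which 6.68% of all named genes were higher and 2.91% lower. Of 32 further genes of synthesis and SREBP control, 5 were higher and 1 lower at the unadjusted p, and their median ratio was 0.55. *Acsl5*, an acyl-CoA synthetase, read 12.31, 12.18 and 12.14 on the replicating arrays against 10.55, 7.91 and 10.74, a log2 ratio of 2.48 ± 0.64. *Tmem97*, a sterol-responsive membrane protein, had a ratio of 1.61 ± 0.38. The other 3 were the elongase *Elovl5* at 1.31, the dehydratase *Hacd2* at 1.00 and the reductase *Tecr* at 0.84, each above 0 in every preparation. The list held 9 genes of fatty acid elongation, a group counted after its values were seen, and the 6 that did not pass had ratios of 0.15 to 0.99. Among these 6, *Elovl7*, *Hacd1* and *Hacd3* had ratios of both signs among the preparations. *Elovl6*, which belongs to the 31 genes and not to this list, had a ratio of -0.08. *Idi2*, a relative of *Idi1*, was the lower gene, with 7.87, 6.99 and 7.20 on the replicating arrays against 10.95, 10.43 and 8.37 and a ratio of -2.56 ± 0.53.

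The 18 genes of cholesterol uptake, efflux and storage had a median ratio of 0.55. Fatty acid oxidation had 1 higher gene of 19, the isomerase *Eci1* (1.17 ± 0.38), and a median of 0.10. Glycerolipid synthesis had 2 higher genes of 15, the acyltransferase *Agpat2* (0.96 ± 0.31) and the phosphatase *Lpin2* (1.58 ± 0.47), and a median of 0.38. With the processed signal, and also without preparation 1, both lists had 0 higher genes. No gene of these 3 lists was lower, and none of the 4 lists had a gene past the adjusted p. In preparation 3 the medians were -0.17, 0.07, -0.23 and -0.19, in the order given, and without preparation 2 the fitted medians were 0.22, 0.26, 0.06 and 0.21.

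**Figure D4:**
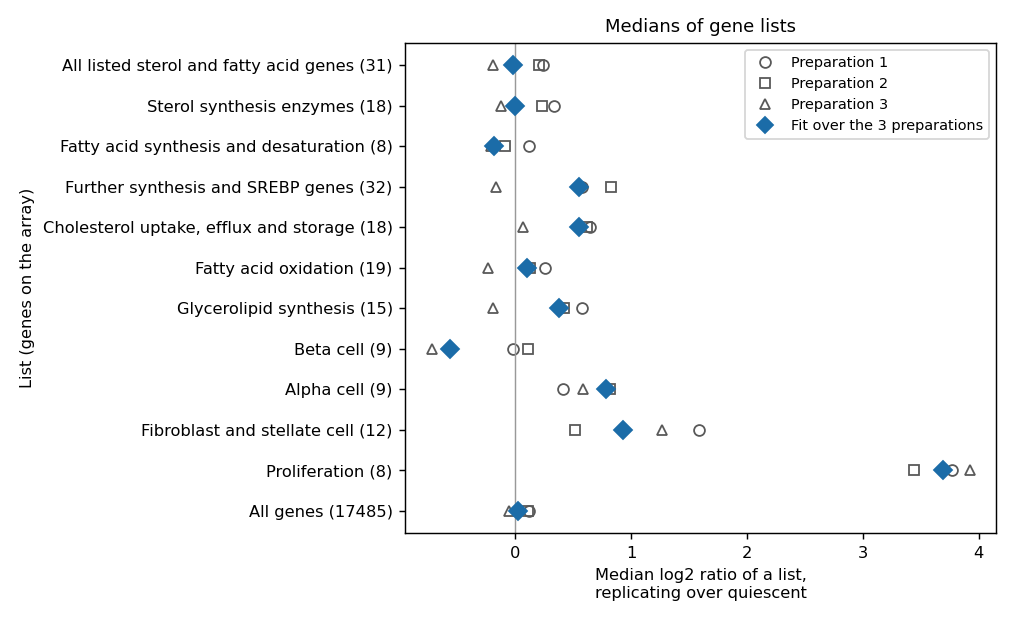
Median log2 ratio, replicating over quiescent β-cells, of each gene list, with the number of its genes on the array. Diamonds are medians of the fitted ratios and open symbols the medians in each islet preparation. The listed sterol and fatty acid genes lie near all genes at 0, the further synthesis and the cholesterol uptake genes near 0.55, and the proliferation genes at 3.69.

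Markers of some other cell types differed between the groups as well. The counts below stand beside 6.68% of all named genes higher and 2.91% lower at the unadjusted p. Summed signals add the values of a list's genes on an array after these were taken off the log2 scale. The summed normalized signal of 9 alpha cell markers was 45395 to 107921 on the replicating and 9209 to 40734 on the quiescent arrays, and 3 of them, *Gcg* and *Gc* included, were higher at the unadjusted p. That of 12 fibroblast and stellate cell markers was 14275.5 to 41398 against 5660.5 to 9038, with 4 higher, among them *Col1a2* and *Col3a1*. The 9 β-cell markers summed to 250260 to 318867 against 154542 to 350545, 1 of them left out for a missing spot, and *Mafa* was lower (-1.01). The brightest probes, *Ins1* and *Ins2*, weigh most in that sum. Of the ratios of the 9 markers 6 were below 0 and 3 above, at a median of -0.56. Delta and PP cell markers had 3 of 5 higher, acinar 2 of 10, duct 1 of 8, immune 2 of 9 and endothelial 0 of 9, and none of these lists had a lower gene. In the same order, their median ratios were 1.21, 0.24, -0.28, 0.48 and 0.10. Ratios above and below 0 numbered 4 and 1, 6 and 4, 2 and 6, 7 and 2, and 5 and 4. No marker was below background on all arrays. The part of these cells in the lipid genes was not tested, and in sorted cells fewer cells of a type and less RNA per cell cannot be told apart.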

How the data were processed

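RNA of the sorted cells was turned into cDNA by whole transcriptome amplification. The cDNA, carrying the dye Cy3, was hybridized to 6 Agilent rat arrays of 1 colour, which the authors read with Feature Extraction 10.7.3.1. The authors deposited each spot's raw intensity and also log2 values that had been through normexp and quantile normalization. These deposited log2 values were analysed; values recomputed here from the intensities with a normexp offset of 50 differed by at most 0.000245. Control spots and spots marked as outliers were left out and the spots of a probe averaged, which gave 45598 probes. Each was tested with limma 3.58.1 in R 4.3.3 (data.table version 1.17.8), in a model blocked on the islet preparation, the paired design that the methods state, and p was adjusted by Benjamini-Hochberg over all probes. The fit was tested on simulated data. Errors are standard errors or 95% intervals of the fit.

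The study's design gives 1 replicating and 1 quiescent sample per preparation, which pairs the arrays. After each group's mean was removed, paired arrays correlated at an r of 0.0561, 0.242 and 0.258. The genes, the lists and the rule for naming genes (all listed genes, values by array for those with an unadjusted p of at most 0.05 and for the regulators and flux-controlling enzymes, and from other lists mainly those past that p, at most 6 each) were chosen with earlier results of these data known. RefSeq entries (GRCr8) gave promoters, names and the set of named genes only. Alternatives were the recomputed values, a normexp offset of 16, the processed signal scaled to the 75th percentile, cyclic loess, dim probes removed, outlier spots kept, a fit without the block, a trended variance prior, the median over probes, RefSeq names, and each preparation left out in turn. Some genes that meet this rule are not reported here. The study's other experiments were not used here.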

Additional observations from a re-analysis of the deposited data

How the results depend on the processing

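The calls above rest on unadjusted values. No probe of the array passed the adjusted p as reported, while 204 did with cyclic loess, 99 without the block, 84 without preparation 2 and 61 with the variance trend. None of the 31 genes passed the adjusted p under any of the 13 alternatives. *Dhcr7* was higher at the unadjusted p in all 13 (1.35 to 2.51), *Fads2* in 11 of 13 (1.06 to 1.70), *Nsdhl* was lower in 10 of 13 (-1.77 to -0.77) and *Scd1* in 10 of 12 (-2.05 to -0.89). With the processed signal, 1 gene was higher and 1 lower (2.19% and 5.09% of all genes), *Fads2* (1.09) and *Nsdhl* (-1.64) no longer passing. The median over all genes was -0.41 there, and 9 of the 31 genes turned sign. Turned downward were *Srebf1* -0.0179, *Scap* -0.24, *Fdps* -0.58, *Tm7sf2* -0.73, *Hsd17b7* -0.53 and *Fads1* -0.24. Turned upward were *Srebf2* 0.0054, *Fdft1* 0.0348 and *Ebp* 0.22. With cyclic loess 2 genes were higher and 5 lower (8.32% and 5.04% of all genes), *Hmgcs1* (-0.90), *Msmo1* (-1.03) and *Acss2* (-0.88) joining, and *Scap* (-0.33), *Hsd17b7* (-0.0466) and *Acaca* (-0.0371) turned sign. With the median over probes *Cyp51* (0.26), *Stard4* (0.49) and *Acaca* (-0.33) turned sign and *Nsdhl* (-0.77) no longer passed, while *Acat2* did, at -1.55 and an unadjusted p of 0.045 in limma, a value below the ratios of all 5 of its probes, 1 of which lacked a value in preparation 2. The cause of these changes was not tested.

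Without the preparation block, which ignores the pairing, 3 genes were higher and 3 lower (7.06% and 1.84% of all genes), *Idi1* (1.08) and *Acss2* (-0.78) joining, and with a variance trend 3 were higher and 2 lower (6.94% and 4.48%). The normexp offset, dim probes, outlier spots and RefSeq names moved no call of these genes. Of the 32 further synthesis genes, the 5 higher ones became 1 with the processed signal, 3 with the offset of 16 and with the variance trend, and 1, 3 and 7 without preparations 1, 2 and 3, when the median was 0.36, 0.22 and 0.92. The 2 higher glycerolipid genes became 0 with the processed signal, 0 without preparation 1 and 1 without preparation 2. The 1 higher oxidation gene became 0 in these 3 settings and with the variance trend, and 2 with cyclic loess, without the block and without preparation 3. With a preparation left out, 1 to 7 of the 31 genes were higher and 1 was lower each time, and the median ratio was -0.12 to 0.10. Over the 3 omissions the ratio ranged for *Sc5d* from 0.0127 to 1.02, *Pmvk* from -0.25 to 0.0631, *Fdft1* from -0.30 to 0.055, *Tm7sf2* from -0.15 to 0.75, *Stard4* from -0.52 to 0.23, *Scap* from -0.43 to 0.55, *Mvd* from -0.48 to 0.0243, *Hsd17b7* from -0.17 to 0.13, *Ebp* from -0.21 to 0.22, *Elovl6* from -0.29 to 0.18, *Cyp51* from -0.31 to 0.24 and *Fasn* from -0.54 to 0.00033.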
